A study of Mus musculus with 15 samples.

Results

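Plau, Plat and Plaur are the 3 genes of the plasminogen activator system described here, out of 22012 genes measured in the mouse colon. They were chosen by name, with earlier results of these arrays known. Their own differences between groups are therefore given as descriptions, without a p-value. Whether the fit called a member is listed beside the share of all genes called. It is no test of that member, and nothing is read from the counts of members called. The array carries 5 probes annotated to them, of which 3 passed the filter on dim signals, 1 for each gene. Female Balb/cJ mice were 8 weeks old when treatment began. Chronic colitis was induced with dextran sodium sulfate (DSS), a polysaccharide that injures the colon lining, given at 4% in the drinking water in 3 cycles of 4 days, with 3 days of plain water between cycles. The 3 groups of 5 mice received water without DSS, DSS with the vehicle of the drug, or DSS with filgotinib, an inhibitor that prefers the Janus kinase JAK1, dosed daily by mouth at 30 mg/kg. The labels give the water group a vehicle control as its compound, whereas the design text gives it drinking water only, so whether these mice were gavaged is not known here. RNA came from mucosa scraped off the most distal 30 mm of the descending colon, with 1 mouse to each 1-colour Agilent array.

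Plau encodes urokinase (uPA) and Plat encodes tissue plasminogen activator (tPA), the serine proteases that cut the inactive plasminogen into plasmin. Plaur encodes the urokinase receptor (uPAR), a protein held to the cell surface by a lipid anchor that concentrates urokinase where cells migrate or remodel matrix. Plasmin dissolves fibrin, activates several matrix metalloproteinases and releases growth factors, and it is restrained by inhibitors of the serpin family. In the inflamed gut, urokinase and its receptor are known from myeloid and stromal cells, while tPA is best known from endothelium and nerves.

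Each value is log2 of the array's processed signal minus the 75th percentile of that array, so 0 is the level of that percentile, and a difference of 1 is a doubling. The 75th percentile lay between 684 and 813 intensity units in water, 570 and 667 in DSS vehicle and 552 and 663 in DSS filgotinib, and 50.2% to 62.1% of probes were well above background. All 12 colon epithelium markers were above background on at least some arrays, and their summed level was 1811 to 2031 times the 75th percentile in water, 2195 to 2331 in DSS vehicle and 1990 to 2258 in DSS filgotinib. Arrays lay on 6 slides, and only 2 slides held more than 1 group.

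DSS vehicle mice had the highest group mean of all 3 genes. Plaur differed most evenly between mice: every DSS vehicle mouse lay above every water mouse, with a mean 1.85-fold higher. Plau was 3.59-fold and Plat 1.92-fold higher by the group means, but mice overlapped. With filgotinib the means of Plau, Plaur and Plat were 2.67-fold, 1.76-fold and 2.07-fold lower than with vehicle, and each gene's mice overlapped between these groups. In scraped tissue, fewer cells of a type and less RNA per cell cannot be told apart.

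Plau, urokinase, was measured by its brightest probe at chr14:21662487-21662546 (mm9), which starts at base 2219 of the annotated transcript and was well above background on 14 of 15 arrays. In the water mice numbered 1 to 5, Plau was at -1.56, -3.43, -3.60, -2.94 and -1.17. In the DSS vehicle mice it was at -1.31, -1.54, -0.78, -0.51 and 0.65. In the DSS filgotinib mice it was at -4.60, -0.99, 0.54, -2.13 and -3.40, where the first value was not well above background. Water mice 1 and 5 lay within the DSS vehicle range, and the filgotinib mice ran from below every water mouse to just under the highest DSS vehicle mouse. The group means were -2.54 ± 1.11 in water, -0.70 ± 0.85 in DSS vehicle and -2.12 ± 2.01 in DSS filgotinib (SD, n = 5 each). The order was DSS vehicle, filgotinib, water, and each gap between neighbours was within the SD of the filgotinib group.

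The second Plau probe crosses an intron, since its 60 bases span 367 bases of the genome at chr14:21659855-21660221 (mm9). It is shown because it reads spliced Plau RNA at another place in the transcript, from base 1073.
Plau junction probe: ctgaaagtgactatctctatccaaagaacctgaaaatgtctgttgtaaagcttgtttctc
It was dim, and was well above background only in water mouse 5 at -5.11, DSS vehicle mouse 5 at -3.99 and filgotinib mouse 3 at -4.03. These 3 mice were the highest of their group by the brightest probe too. On the other 12 arrays the junction probe gave no measured level, so its group differences are not read.

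Plat, tissue plasminogen activator, was measured by a probe at chr8:23892531-23892590 (mm9), from base 1742 of the transcript. The probe is shown because the first reading frame runs without a stop up to the stop codon that starts at base 46, in capitals.
Plat probe: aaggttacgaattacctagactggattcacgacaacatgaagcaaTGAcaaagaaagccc
In water mice 1 to 5, Plat was at -1.88, -1.68, -3.09, -1.14 and -2.53. In DSS vehicle mice it was at -1.70, -0.57, -0.19, -1.69 and -1.46. In DSS filgotinib mice it was at -4.82, 0.20, -2.16, -0.25 and -3.84, and mice 1 and 5 were not well above background. The filgotinib group held both the highest and the lowest Plat values of the study, and all 3 groups overlapped. The means were -2.06 ± 0.76 in water, -1.12 ± 0.70 in DSS vehicle and -2.17 ± 2.19 in DSS filgotinib (SD, n = 5 each). The order was DSS vehicle, water, filgotinib. The gap from DSS vehicle to water was wider than either SD although mice overlapped, and the gap from water to filgotinib was not. A further Plat probe at chr8:23886301-23886360, annotated to a cDNA clone, was above background on 0 of 15 arrays.

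**Figure D1:**
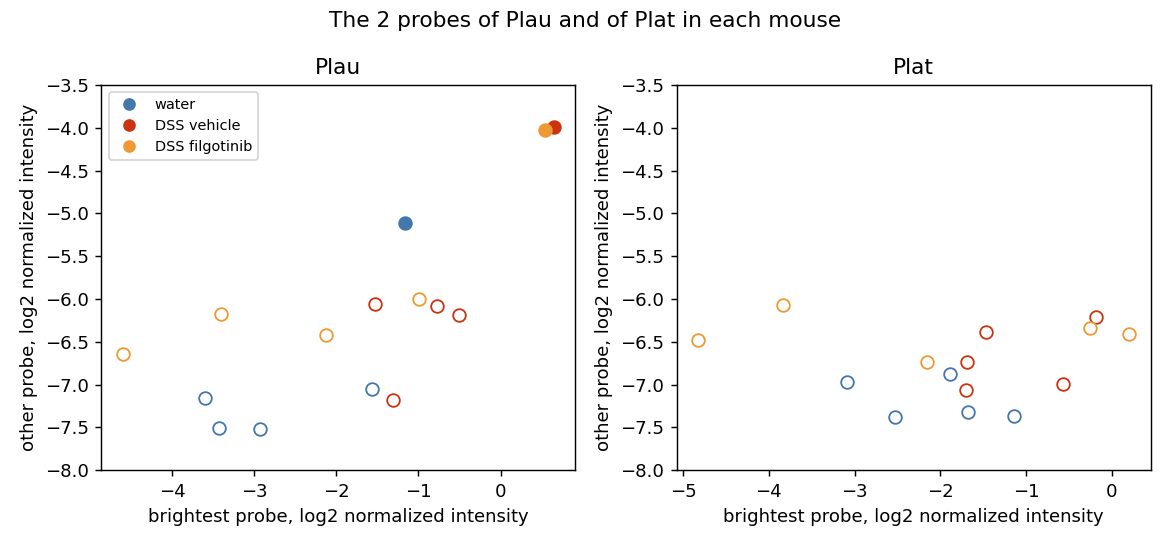
Log2 normalized intensity of the brightest probe (horizontal axis) against that of the other probe (vertical axis) of Plau and of Plat, 1 point per mouse, coloured by group. Points are filled where the other probe was well above background, which was so for 3 mice for Plau and for 0 of 15 arrays for Plat.

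Plaur, the urokinase receptor, was measured by a single probe at chr7:25260569-25260628 (mm9), above background on all 15 arrays. In water mice 1 to 5, Plaur was at -0.91, -1.38, -0.58, -1.15 and -1.11. In DSS vehicle mice it was at -0.34, -0.48, 0.36, -0.28 and 0.03. In DSS filgotinib mice it was at -1.38, -0.31, -0.66, -0.97 and -1.48. The lowest DSS vehicle mouse lay just above the highest water mouse, and filgotinib mouse 2 was the only filgotinib mouse inside the DSS vehicle range. The means were -1.03 ± 0.30 in water, -0.14 ± 0.34 in DSS vehicle and -0.96 ± 0.49 in DSS filgotinib (SD, n = 5 each). The gap between DSS vehicle and filgotinib, the next in order, was wider than either SD, and the gap between filgotinib and water was not.

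Plaur was also the only member with an entry in the RefSeq promoter table used here (GRCm38.p6). The 250 bases before the start site of that entry, chr7:24462233-24462482 on the plus strand, are shown with matches to 2 searched motifs in capitals, because Plaur is known as a target of AP-1, the factor family of Fos and Jun.
Plaur promoter: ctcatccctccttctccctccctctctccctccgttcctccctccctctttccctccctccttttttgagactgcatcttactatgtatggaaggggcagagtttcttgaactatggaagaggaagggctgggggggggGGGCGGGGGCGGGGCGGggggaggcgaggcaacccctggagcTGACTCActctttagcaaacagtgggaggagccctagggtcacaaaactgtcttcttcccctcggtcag
The AP-1 motif TGANTCA matched once, at -69 from the start site, and the Sp1 motif GGGCGG matched at -111, -105 and -100. Searched on both strands in windows of 300 bases, TGANTCA was present in 7.81% of 32851 promoters and GGGCGG in 35.7%. The STAT motif TTCNNNGAA, present in 8.30% of promoters, the CRE motif TGACGTCA in 1.79% and the ETS motif CCGGAAGT in 3.89% had no match in the Plaur window. Of 56 pathway genes with an entry, 13 (23.2%) held the AP-1 motif, 28 (50.0%) the Sp1 motif, 10 (17.9%) the STAT motif, 2 (3.57%) the CRE motif and 0 the ETS motif. These shares count a gene once if any of its entries matched, whereas the shares over all promoters count entries. The 2 kinds of share are thus not alike, and enrichment was not tested. A match is a run of letters and not a measured binding site.

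**Figure D2:**
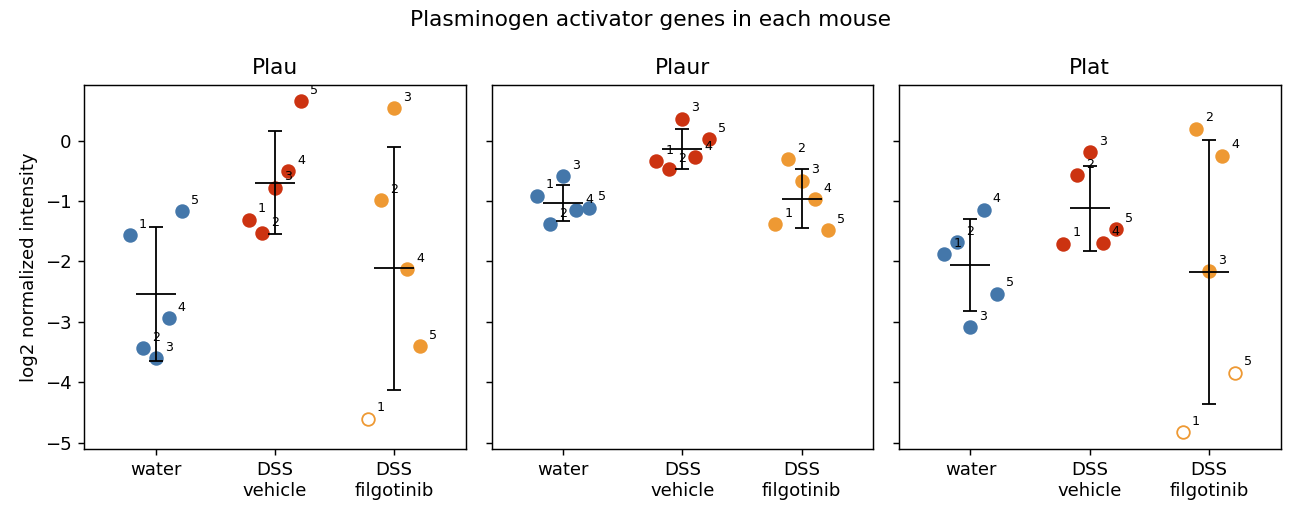
Log2 normalized intensity (vertical axis) of Plau, Plaur and Plat in each mouse, numbered within its group, with the group mean (bar) and SD (whiskers), n = 5; open circles were not well above background. Plaur shows groups narrower than those of Plau and Plat, with the lowest DSS vehicle mouse just above the highest water mouse. Plau and Plat in the filgotinib group spread over more than the other groups' range.

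For DSS vehicle against water, the fit put Plau 1.84 ± 0.82, Plaur 0.89 ± 0.23 and Plat 0.94 ± 0.81 higher (log2 fold change ± SE). At an adjusted p under 0.05 (limma, Benjamini-Hochberg over all genes), 1 of the 3 genes, Plaur, was called higher, beside 10.8% of all genes called higher and 8.41% called lower. Since the members were chosen with earlier results known, this call is a description and no test of Plaur. The groups did not overlap for 1 of 3, again Plaur and again higher, beside 9.84% of all genes. Values measured within a slide were available for slide 2 alone, with 1 DSS vehicle and 2 water mice, and there the differences were 0.85 for Plau, 0.37 for Plaur and 2.24 for Plat. Within the scan day that held 3 mice of each of these groups they were 2.25, 0.95 and -0.05. With slide as a fixed term 0 of 3 were called, and with only these groups fitted Plau was called beside Plaur.

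For DSS filgotinib against DSS vehicle, the log2 fold changes were -1.42 ± 0.82 for Plau, -0.82 ± 0.23 for Plaur and -1.05 ± 0.81 for Plat (± SE). Again 1 of 3, Plaur, was called, here lower, beside 4.53% of all genes called lower and 6.79% called higher. The groups did not overlap for 0 of 3, beside 7.99% of all genes. On slide 3, with 2 filgotinib and 3 DSS vehicle mice, the differences were -2.41, -0.65 and -0.69. Within 1 scan day, with 4 filgotinib and 3 DSS vehicle mice, they were -2.39, -0.84 and -0.56. The Plaur call was lost, leaving 0 of 3, on removing any of filgotinib mice 1, 4 and 5 or of DSS vehicle mice 1, 3, 4 and 5. It was also lost with slide or scan day as a fixed term, with only these groups fitted and without the filter on dim probes.

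For DSS filgotinib against water, the log2 fold changes were 0.42 ± 0.82 for Plau, 0.07 ± 0.23 for Plaur and -0.11 ± 0.81 for Plat (± SE). limma called 0 of 3, beside 9.83% of all genes called, 6.42% higher and 3.41% lower. At an unadjusted p under 0.05 it was 0 of 3, beside 28.7% of all genes. The groups did not overlap for 0 of 3, beside 9.57% of all genes. Within the shared scan day, with 4 filgotinib and 3 water mice, the differences were -0.14, 0.11 and -0.61. The comparisons share groups of mice, so their values are set side by side and are not independent of each other.

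The spread between mice of a group set the activators apart from the receptor. The pooled SD within groups was 1.41 for Plau and 1.40 for Plat, each above that of 99.1% of genes, and 0.38 for Plaur, above that of 83.5%. The median over all genes was 0.185. Among the mice with signal well above background, the highest exceeded the lowest 19.03-fold for Plau (14 mice), 9.78-fold for Plat (13 mice) and 3.59-fold for Plaur (15 mice). The SD of Plau includes 1 filgotinib mouse that was not well above background, and that of Plat 2. The filgotinib group was the widest for each gene: mouse 1 was the lowest of the study for Plau and for Plat, while the highest filgotinib mouse was mouse 3 for Plau and mouse 2 for Plat and Plaur.

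Across the 15 mice the genes moved partly together. Pearson's r was 0.71 for Plau with Plaur, 0.53 for Plau with Plat and 0.58 for Plaur with Plat. After subtraction of group means it was 0.57, 0.45 and 0.51. These are descriptions over 15 arrays that share slides and scaling.

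The genes most like Plau were Lamb1 (laminin B1), Adam19 (a membrane metalloprotease), Htra3 (a secreted serine protease), Bicc1 (an RNA-binding protein) and Tgfbi (a matrix protein induced by TGF-beta), with r of 0.987 to 0.992 over 15 arrays. After group means were removed these r were still 0.987 to 0.991. The genes most like Plaur were Il1b (interleukin-1 beta) at 0.910, Sema7a (a semaphorin) at 0.894, Clec7a (the beta-glucan receptor dectin-1) at 0.891, and Cyfip2 and Cited1 at 0.887. After group means were removed these were 0.736 to 0.834. For Plat, the likeness was looser, with Scrt1 at 0.826 and Nr4a2, an orphan nuclear receptor, at 0.771 among its closest 5, beside 3 transcripts of unknown function. Part of these likenesses rests on dim values, since Il1b was above background in 3 of 5 filgotinib mice and Scrt1 in 2 of 5.

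**Figure D3:**
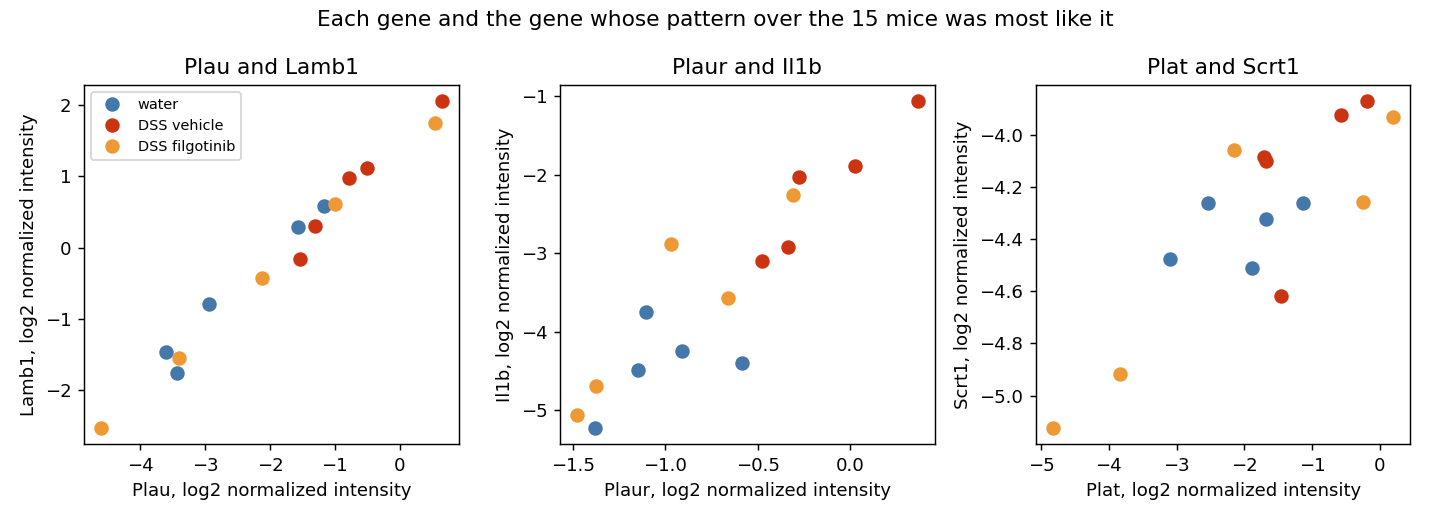
Log2 normalized intensity in each of the 15 mice of Plau against Lamb1, Plaur against Il1b and Plat against Scrt1, coloured by group. The Plau points of all 3 groups lie along one line (r = 0.992), the Plaur points scatter around theirs (r = 0.910), and the lowest Plat points (r = 0.826) are both from filgotinib mice.

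Markers of some cell types moved with these genes from mouse to mouse, and those of others did not. The mean log2 level of the 8 fibroblast markers, led by collagens, followed Plau with r = 0.988 after group means were removed, that of the macrophage and monocyte markers with 0.960, and that of the endothelial markers with 0.897. The other lists gave 0.467 for smooth muscle, 0.127 for neutrophils, 0.034 for squamous epithelium, -0.150 for mast cells and -0.234 for colon epithelium. The summed fibroblast level, in multiples of the 75th percentile, ranged from 4.43 to 28.3 in water, 13.9 to 71.3 in DSS vehicle and 2.00 to 58.5 in DSS filgotinib. The summed macrophage level, over 9 of 11 listed markers, ranged from 14.7 to 28.6, 25.7 to 61.8 and 15.7 to 40.6, and the marker Fcgr1 was above background on 0 arrays. In DSS vehicle against water, 0 of 8 fibroblast and 0 of 9 macrophage markers were called by limma (2 and 5 at an unadjusted p under 0.05), with medians of 1.66 and 0.73 on the log2 scale. Over all genes, 10.8% were called higher and 8.41% lower there, and 34.1% had an unadjusted limma p under 0.05. In filgotinib against DSS vehicle, 0 of 8 and 0 of 9 were called by limma (3 and 1 at an unadjusted p under 0.05), with medians of -1.59 and -0.42. The shares over all genes were 6.79% called higher, 4.53% called lower and 28.4% at an unadjusted limma p under 0.05. The marker counts were not tested against these shares.

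For Plaur, several marker lists were about equally close after group means were removed, with r = 0.663 for neutrophils, 0.623 for endothelial cells, 0.609 for macrophages and 0.604 for fibroblasts. Mast cells gave 0.259, smooth muscle 0.211, squamous epithelium -0.021 and colon epithelium -0.168. For Plat, r was 0.646 for mast cells, 0.556 for neutrophils, 0.436 for fibroblasts, 0.355 for macrophages and 0.223 for endothelial cells. Squamous epithelium gave 0.249, smooth muscle -0.049 and colon epithelium -0.328. Before group means were removed, r for Plat was 0.416 for mast cells and 0.269 for endothelial cells. The summed neutrophil level over 7 of 10 markers was 161 to 187 in water, 195 to 213 in DSS vehicle and 173 to 185 in DSS filgotinib. Most of that sum is the single probe of Csf3r, a cytokine receptor, at a mean of 7.28, 7.45 and 7.30 on the log2 scale. S100a9, a calprotectin subunit of neutrophils, was at -4.81 ± 0.54, -0.96 ± 1.79 and -4.08 ± 1.58 (SD, n = 5 each), above background on 3, 5 and 2 arrays. Other markers of the list differed less between the group means, in the same order. Elane was at -0.23, -0.01 and -0.14, and Camp at -3.67, -3.64 and -3.68. Mpo was at -4.55, -4.57 and -4.71, with its fitted probe above background on 4, 2 and 0 arrays. Of the 7 neutrophil markers, 6 had a positive log2 fold change with DSS, and all 7 a negative one with filgotinib against DSS vehicle. By limma calls, 2 rose with DSS and 1 fell with filgotinib, beside 10.8% and 4.53% of all genes. Cxcr2, Retnlg and Ngp were above background on 0 arrays. The summed mast cell level over 7 of 9 markers was 3.48 to 4.40, 4.93 to 5.54 and 4.69 to 6.24, a sum in which the brightest probes, such as Kit, weigh most. The mean log2 level of the same 7, in which each marker weighs equally, had a median of -3.14 in water, -1.37 in DSS vehicle and -2.21 in DSS filgotinib, and the 3 groups did not overlap. The widest differences behind it, in that order, were in Mcpt1 (-4.76, -0.24, -2.28), Mcpt4 (-4.30, 0.09, -1.92) and Mcpt2 (-7.21, -3.24, -6.13). Mcpt2 was above background in DSS vehicle mice only. Kit (1.3, 1.2, 1.5), Tpsb2 (-2.26, -2.36, -2.27) and Cma1 (0.05, -0.87, 0.79) had lower means in DSS vehicle than in water. With DSS, 4 of the 7 log2 fold changes were positive and 3 negative. With DSS, 3 of the 7 rose and 1 fell, beside 10.8% and 8.41% of all genes. With filgotinib against DSS vehicle 1 rose and 3 fell, beside 6.79% and 4.53% of all genes. The part of cell makeup in the differences of Plau, Plaur and Plat was not tested.

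Among the 5 measured of 8 listed inhibitors, 1 rose in DSS vehicle against water, with a list median of 0.11 on the log2 scale beside 0.05 over all genes. Over all genes, 10.8% were called higher and 8.41% lower in that comparison. The shares were 6.79% and 4.53% in filgotinib against DSS vehicle, and 6.42% and 3.41% in filgotinib against water. At an unadjusted limma p under 0.05 the shares were 34.1%, 28.4% and 28.7% in the same order of comparisons. The counts of this and the next lists were not tested against these shares. Water mice were at -4.37 to -2.91 for Serpine2 and DSS vehicle mice at -2.63 to 0.91, with no overlap. Serpine2, protease nexin-1, which inhibits urokinase and thrombin, rose by 3.53 ± 0.83 (log2 ± SE, limma adjusted p = 0.0102). Serpinf2, the plasmin inhibitor alpha-2-antiplasmin, was at -0.33 ± 0.37 and was not called.

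In filgotinib against DSS vehicle, 0 of 5 inhibitors were called by limma (2 at an unadjusted p under 0.05), and the list median was -0.26 beside 0.0012 over all genes. Serpine2 was at -2.60 ± 0.83 (log2 ± SE, limma adjusted p = 0.0572), with 3 of 5 filgotinib mice above background. It was called lower without DSS vehicle mouse 2 or filgotinib mouse 2 or 3, and also in the deposited log2 table, with normexp background and quantile scaling, and with scan day as a fixed term. In filgotinib against water 1 of 5 rose, the intracellular Serpinb6a, by 0.28 ± 0.08 (adjusted p = 0.0493). That call was lost when any single water or filgotinib mouse was left out, and likewise for DSS vehicle mice 1 and 5, and the value turned to -0.0926 with the mean of its probes. With quantile scaling, normexp and the deposited table the value was 0.07, 0.16 and 0.05, not called. The call was also lost with a common median, only these groups fitted, slide as a fixed or random term and a replicate block. Serpinb2 (PAI-2) was above background in 1 water mouse only, and Serpina5, another inhibitor of the activators, on 0 of 15 arrays.

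Plasminogen itself, Plg, which is made mainly in the liver, was above background on 0 of 15 arrays. Of the 5 measured of 6 listed genes for plasminogen and its cell surface receptors, 1 rose with DSS, with a list median of 0.20. It was Anxa2, annexin A2, a docking protein for plasminogen and tPA, at 0.52 ± 0.12 (limma, adjusted p = 0.0076). Its partner S100a10 was at 0.21 ± 0.13 and the receptor Plgrkt at 0.07 ± 0.09, neither called. By limma, filgotinib against DSS vehicle called 0 of 5 (0 at an unadjusted p under 0.05), with a median of -0.17. Filgotinib against water also called 0 of 5 (2 unadjusted), with a median of 0.07. Anxa2 was called lower with filgotinib without filgotinib mouse 4, and higher in filgotinib against water without filgotinib mouse 1.

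The receptor's partners and clearance receptors showed small differences. Of 14 measured of 17 listed, with a list median of 0.11, 3 rose with DSS, beside 10.8% of all genes. These were the integrin chains Itgb1, at 0.35 ± 0.07 (adjusted p = 0.0043), and Itga3, at 0.36 ± 0.10 (adjusted p = 0.0211), and the formyl peptide receptor Fpr2, which binds a fragment of uPAR, at 0.60 ± 0.15 (adjusted p = 0.0123), all by limma. The chains of the leukocyte integrin Mac-1, which pairs with uPAR, were not called: Itgam was at 0.12 ± 0.12 and Itgb2 at 0.69 ± 0.24. Their levels lay far apart, since water mice were at 6.03 to 6.24 for Itgam and at -3.83 to -3.22 for Itgb2. Whether the Itgam probe reads the leukocyte chain was not tested, so its small difference is not read as unchanged Mac-1 RNA. Itgb2 was called without DSS vehicle mouse 2 or filgotinib mouse 1, and the Itga3 call was lost on removing water mouse 2 or DSS vehicle mouse 4.

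With filgotinib against DSS vehicle, 1 of the 14 fell, beside 4.53% of all genes. It was the endocytic receptor Lrp2, lower by 0.41 ± 0.12 on the log2 scale (limma, adjusted p = 0.0425). That call did not survive the removal of any of water mice 1, 4 and 5, of DSS vehicle mice 1, 3, 4 and 5, or of filgotinib mice 2 and 4, taken singly. It was also lost with a common median, quantile scaling, normexp and the deposited table. The same held with no filter, only these groups fitted, slide as a fixed term and a replicate block. Itga3, at -0.31 and not called, was called lower with quantile scaling, normexp, the deposited table and without filgotinib mouse 4. Lrp1, which clears complexes of activator and inhibitor, was at 0.01 ± 0.09. In filgotinib against water, Itgb1 alone rose, by 0.36 ± 0.07 (limma, adjusted p = 0.0118). The list medians were -0.17 and 0.07.

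Of 12 measured of 20 listed substrates, 3 rose and 1 fell with DSS, beside 10.8% and 8.41% of all genes. The list, of substrates of plasmin and the activators, had a median of 0.98. Those that rose are the matrix metalloproteinases Mmp3 and Mmp10 (the stromelysins) and Mmp13 (collagenase-3), which were above background in 0 of 5 water mice each. Mmp10 was at least 18.7-fold higher in DSS vehicle (limma, adjusted p = 0.0004) and Mmp13 at least 10.1-fold higher (adjusted p = 0.0002), each bound being the DSS mean against the lowest signal that counts as above background in water. Mmp3 was at least 5.61-fold higher (adjusted p = 0.0045), with 4 of 5 DSS vehicle mice above background. Mmp3, Mmp10 and Mmp13 passed the filter on dim probes only with the DSS vehicle mice counted. Their entry to the fit thus depended on being high in that group, and so do the counts and median of this list. Pdgfd, a growth factor that urokinase activates, fell by 1.51 ± 0.49 on the log2 scale (adjusted p = 0.0459), with 2 of 5 DSS vehicle mice above background. The Pdgfd call did not survive the removal of any of water mice 1, 2, 4 and 5, of DSS vehicle mice 1, 3 and 4, or of filgotinib mice 2 and 5.

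With filgotinib against DSS vehicle, 3 of the 12 substrates fell, beside 4.53% of all genes. The list median was -0.53. Mmp10 fell by 4.29 ± 0.78 and Mmp13 by 3.97 ± 0.63 on the log2 scale (limma, adjusted p = 0.0049 and 0.0027). Only 1 of 5 filgotinib mice was above background for each, so the fitted sizes rest largely on signal at background. Both entered the fit only with the DSS vehicle mice counted, so the count of falls depends on that filter too. Mmp14, a membrane-bound collagenase, fell by 0.50 ± 0.15 (adjusted p = 0.0437), a call that was lost on removing any water mouse, any DSS vehicle mouse but number 2, or any filgotinib mouse but number 3. Mmp3 was at -1.75 ± 0.93 and Fn1, fibronectin, at -1.17 ± 0.84, neither called. In filgotinib against water 1 of 12 rose, the matrix protein Thbs1, by 0.96 ± 0.20 (limma, adjusted p = 0.0138), and the median was 0.19. That call was lost with the mean of its probes. The fibrinogen chains Fga, Fgb and Fgg were not measured above the filter. Hgf, a growth factor that urokinase can activate, was above background in 2 DSS vehicle and 2 filgotinib mice, and Mmp9, gelatinase B, in 1 filgotinib mouse.

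Other serine proteases listed around the system and HGF went both ways, and whether each acts on either was not tested. Of 6 measured of 10 listed, 3 rose and 1 fell with DSS, beside 10.8% and 8.41% of all genes. The list median was 0.25. Mcpt4, a mast cell chymase that is also on the mast cell list, rose by 4.39 ± 0.36 (limma, adjusted p = 1.1e-05). The HGF activator Hgfac rose by 0.49 ± 0.08 (adjusted p = 0.0018) and the epithelial protease matriptase, St14, by 0.36 ± 0.11 (adjusted p = 0.0331). Hpn, the transmembrane protease hepsin, fell by 2.82 ± 0.32 (adjusted p = 0.0001), from 1.22 to 1.48 in water mice to -2.06 to -0.73 in DSS vehicle mice. The St14 call was lost on removing any of water mice 2, 4 and 5 and of DSS vehicle mice 1, 2 and 4.

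With filgotinib against DSS vehicle, 1 of the 6 proteases rose and 2 fell, beside 6.79% and 4.53% of all genes. The list median was -0.13. Hpn rose by 2.09 ± 0.32 (limma, adjusted p = 0.0023), with filgotinib mice at -0.50 to 1.36, all above the DSS vehicle mice. Mcpt4 fell by 2.00 ± 0.36 (adjusted p = 0.0047) and Hgfac by 0.31 ± 0.08 (adjusted p = 0.0310). The Hgfac call was lost on removing any of DSS vehicle mice 1, 2 and 4 and of filgotinib mice 1, 2 and 3. In filgotinib against water 1 of 6 was called, Mcpt4, which remained 2.39 ± 0.36 higher (limma, adjusted p = 0.0042), and the median was 0.13.

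Coagulation supplies the fibrin that plasmin dissolves. Of 11 measured of 15 listed genes, 1 rose and 1 fell with DSS, beside 10.8% and 8.41% of all genes. The list median was 0.01. Proc, protein C, an anticoagulant protease, rose by 0.97 ± 0.22 (limma, adjusted p = 0.0080), and Tfpi, the tissue factor pathway inhibitor, fell by 0.92 ± 0.20 (adjusted p = 0.0074). Tissue factor, F3, was at -0.26 ± 0.16 and thrombomodulin, Thbd, at 0.73 ± 1.09, neither called.

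With filgotinib against DSS vehicle, Tfpi rose by 1.20 ± 0.20 (limma, adjusted p = 0.0039), and F2rl1, a protease-activated receptor, fell by 0.69 ± 0.14 (adjusted p = 0.0088). These were the 2 called of 11, beside 6.79% of all genes called higher and 4.53% lower. The list median was -0.30. Filgotinib against water called 0 of 11 by limma (2 at an unadjusted p under 0.05), and the median was 0.01. The Tfpi calls were lost with the mean of its probes.

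With slide as a fixed term, calls over all genes in DSS vehicle against water, 2369 higher and 1851 lower without it, came to 84. Of the pathway genes, 2 of the 15 calls in DSS vehicle against water remained, Hpn (limma, adjusted p = 0.0372) and Mcpt4 (adjusted p = 0.0380). In filgotinib against DSS vehicle, 3 of 9 remained, Hpn (adjusted p = 0.0285), Tfpi (adjusted p = 0.0416) and Mmp13 (adjusted p = 0.0477), and in filgotinib against water 0 of 4 remained. All these pathway differences kept their sign with slide in the fit. In DSS vehicle against water, 5 of 15 were at least as large, such as Proc at 1.00, and 7 of 15 were over 1.5 times smaller, such as Serpine2 at 1.01 and Tfpi at -0.13 on the log2 scale. Only slide 2 held both of these groups, so each such size is DSS vehicle mouse 2 against 2 water mice. An effect of the slide and a trait of that 1 mouse cannot be told apart there. No slide held both filgotinib and water mice.

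**Figure D4:**
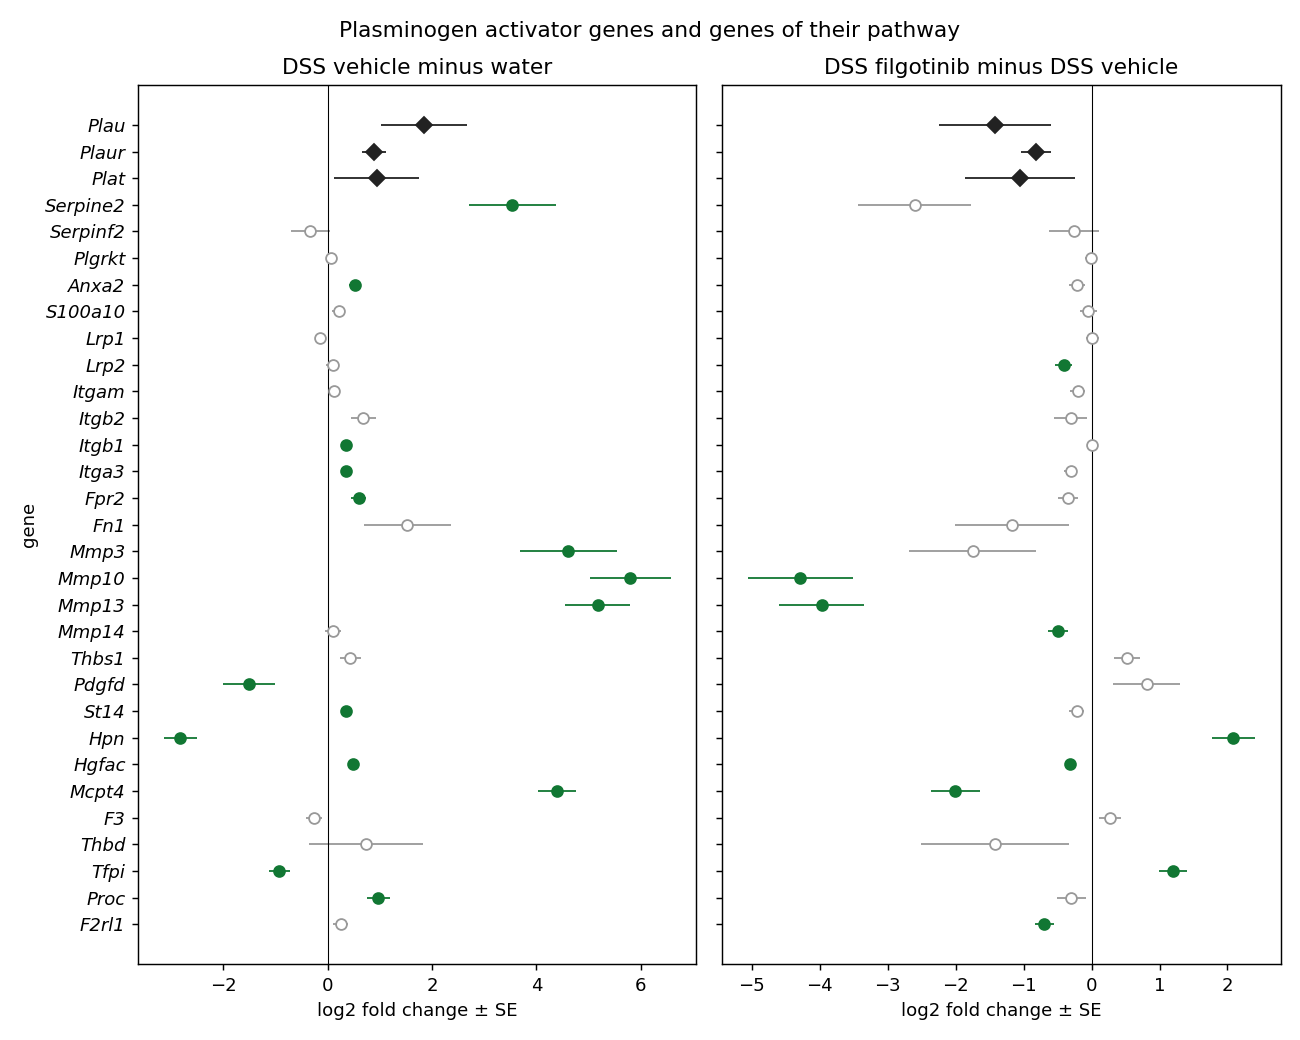
Fitted log2 fold change ± SE (horizontal axes) of Plau, Plaur and Plat (diamonds, calls not shown) and of named pathway genes (filled circles called by limma, open circles not) in DSS vehicle minus water and in DSS filgotinib minus DSS vehicle. Mmp3, Mmp10 and Mmp13 were above background in 0 of 5 water mice, so their fitted values on the left stand beside the bounds given in the text.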

How the data were processed

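Total RNA of 15 mice was labelled with Cy3 and hybridised to 1-colour Agilent arrays. The deposited scanner files hold an intensity per spot, from which Agilent Feature Extraction 11.5.1.1 had subtracted the background and spatial trend, per the file headers, with no scaling between arrays. A deposited table holds log2 values of 32349 probes. How it was scaled and filtered is not given in the sources used here, and it served as an alternative; the submitters' processing notes also name limma. Probe coordinates are mm9, per the file headers.

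Control spots and spots marked as outliers were dropped and spots of a probe averaged. Values are log2 intensity minus each array's 75th percentile. A gene is its brightest probe well above background on at least 5 of 15 arrays. Probes were named through RefSeq accessions (32934 probes), a current symbol (10211), a shared name (346) or only the possibly outdated name in the file (13013). limma 3.58.1 in R 4.3.3 fitted all 15 arrays with group as factor, with two-sided tests adjusted by Benjamini-Hochberg across 22012 genes and calls at an adjusted p under 0.05. A gene below background in a whole group has only a bound there.

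The members and gene lists were chosen with earlier results of these data known. Named genes are the 3 members, 19 fixed genes of the pathway (1 further listed gene is not reported here), up to 3 further called genes of each list by size of change, and the 5 genes most correlated with each member. The number of arrays, 5 per group, limits the precision. Alternatives were other scalings, the deposited table, other filters and probe rules, slide, scan day and replicate number as blocks, and each array left out.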

Additional observations from a re-analysis of the deposited data

Results flagged for a closer look

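In 51 groups of 5 mice checked among the members and fixed pathway genes, 3 had a mouse that stood far from the others, where chance gives about 1 in 20. The plasminogen receptor Plgrkt was lowest in DSS vehicle mouse 3, at 4.24 on the log2 scale, with the next mouse at 4.54. Mmp3 was lowest in DSS vehicle mouse 2, at -5.60, where it was not well above background, and the next mouse was at -2.14. Tissue factor, F3, was highest in water mouse 3, at 4.33, with the next mouse at 3.79. No value of Plau, Plaur or Plat stood apart in this way.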

How the results depend on the processing

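Direction held for Plau, Plaur and Plat in both comparisons with DSS vehicle under all 12 alternatives and with each mouse left out. Within the scan day that held 3 mice of each of DSS vehicle and water, given above, Plat was not higher in DSS vehicle. Slide as a fixed term moved DSS vehicle against water to 0.85, 0.37 and 2.24, which is 1 DSS vehicle mouse against 2 water mice. It moved filgotinib against water to -1.56 for Plau and 1.54 for Plat. Leaving out 1 mouse gave 1.51 to 2.19, 0.76 to 1.00 and 0.69 to 1.17 for Plau, Plaur and Plat in DSS vehicle against water, -2.08 to -0.80, -0.98 to -0.69 and -1.65 to -0.39 in filgotinib against DSS vehicle, and -0.24 to 1.05, -0.10 to 0.20 and -0.70 to 0.55 in filgotinib against water. Counts of calls over all genes were 2369 higher and 1851 lower, 1494 and 998, and 1414 and 750 in the same order of comparisons. Leaving out 1 mouse gave 1522 to 2638 and 1307 to 2007, 790 to 1842 and 525 to 1218, and 438 to 1919 and 307 to 967. In DSS vehicle against water, a common median gave 956 higher and slide as a fixed term 34 higher and 50 lower. In filgotinib against DSS vehicle, higher and lower counts were 234 and 203 with slide fixed, 754 and 522 with only these groups fitted and 693 and 536 with no filter, and a common median gave 545 lower. In filgotinib against water, higher counts were 254 with a common median, 585 with quantile scaling, 675 with normexp, 597 in the deposited table, 7916 with no filter, 732 with the mean of probes, 651 with only these groups, 899 with slide as a random term and 0 with slide fixed, where limma gave 1269 higher at an unadjusted p under 0.05. Lower counts there were 267 with a common median, 1137 with no filter, 428 with only these groups, 497 with slide random and 2 with slide fixed. The share of higher among calls was 56.1%, 60.0% and 65.3% in the 3 comparisons, against 37.9%, 73.6% and 48.8% with a common median, and in filgotinib against water 48.9% with quantile scaling, 49.1% with normexp and 48.1% in the deposited table. The no-filter fit adds dim probes; for the others the cause was not tested. Serpinb6a turned to -0.0926 in filgotinib against water with the mean of probes.

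Same-numbered mice did not pair, with 15 correlations of their deviations from -0.516 to 0.532. With a replicate block, filgotinib against DSS vehicle gave 930 higher and filgotinib against water 463 higher and 325 lower.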
